A study of Mus musculus with 8 samples.

Results

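Channel genes of the heartbeat were followed in ventricular heart of mouse embryos homozygous for a frameshift allele of the transcription factor gene Atf4. The set holds 8 genes of the 52778 features in the deposited expression table. Its members were picked by symbol, not by a cutoff on values, but with earlier results of these data known. They are Hcn4, the calcium channel genes Cacna1d, Cacna1g and Cacna1h, the connexin genes Gja1, Gja5 and Gjc1, and the potassium channel gene Kcnq1. There were 8 libraries from embryonic day 11.5, 4 from control embryos and 4 from embryos with 7 bases deleted from exon 3 on both copies of Atf4 by CRISPR/Cas9 (del7/del7). The deletion shifts the reading frame and sits in every cell of the embryo, and no embryo received a treatment. The labels give the strain C57BL/6 for both groups, and the genotype entry of the mutant samples also reads wild type, so the groups rest on the sample titles. Some label fields go against the tissue: the extraction protocol speaks of cultured cortical neurons and of ribosomal RNA depletion, while the design text speaks of dissected ventricle and a poly(A) kit. Whether a library is 1 embryo or a pool is not given in the sources used here, so p-values measure the spread between these samples.

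The heartbeat starts in pacemaker cells and passes from cell to cell. HCN4 carries the hyperpolarisation-activated "funny" current that helps pacemaker cells depolarise, and the CACNA1D (L-type) and CACNA1G and CACNA1H (T-type) calcium channels add inward current at low voltage. Connexins form the gap junctions through which current spreads: connexin 43 (Gja1) in working myocardium, connexin 40 (Gja5) in atrium, trabecular and conduction myocardium and arterial endothelium, and connexin 45 (Gjc1) in slow-conducting myocardium. KCNQ1 is the pore of the slow delayed rectifier potassium current, which repolarises the cell. In the embryonic ventricle, before the conduction system has matured, trabecular myocardium serves as the ventricular conduction path.

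None of the 8 genes differed between the genotypes past the threshold. Expression is given as TPM, transcript abundance corrected for both the length of the transcript and the size of the library, and was compared as log2(TPM + 1) in limma with Benjamini-Hochberg adjustment over all 15545 genes tested. All 8 members passed the expression filter of at least 1 TPM in at least 4 libraries. The count of members with an adjusted p below 0.05 was 0 of 8, also 0 at an unadjusted p below 0.05, against 0.0386% and 6.1% of all genes tested. Over all genes tested, 48.2% were nominally higher in the mutants, and of the 8 members 5 were nominally higher and 3 lower. Their median log2 fold change was 0.047, and the median over all genes tested was -0.0033. The targeted gene itself, Atf4, was higher in the mutants, at 166 ± 15.1 against 112 ± 8.07 TPM (SD, n = 4 per group). Its log2 fold change was 0.57 (limma, adjusted p of 0.0430). Its direction held in all 17 alternative analyses, but the call was lost in 12 of them, 7 with 1 library left out. The deletion removes only 7 bases of the transcript, so this level does not test the loss of the protein.

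**Figure D1:**
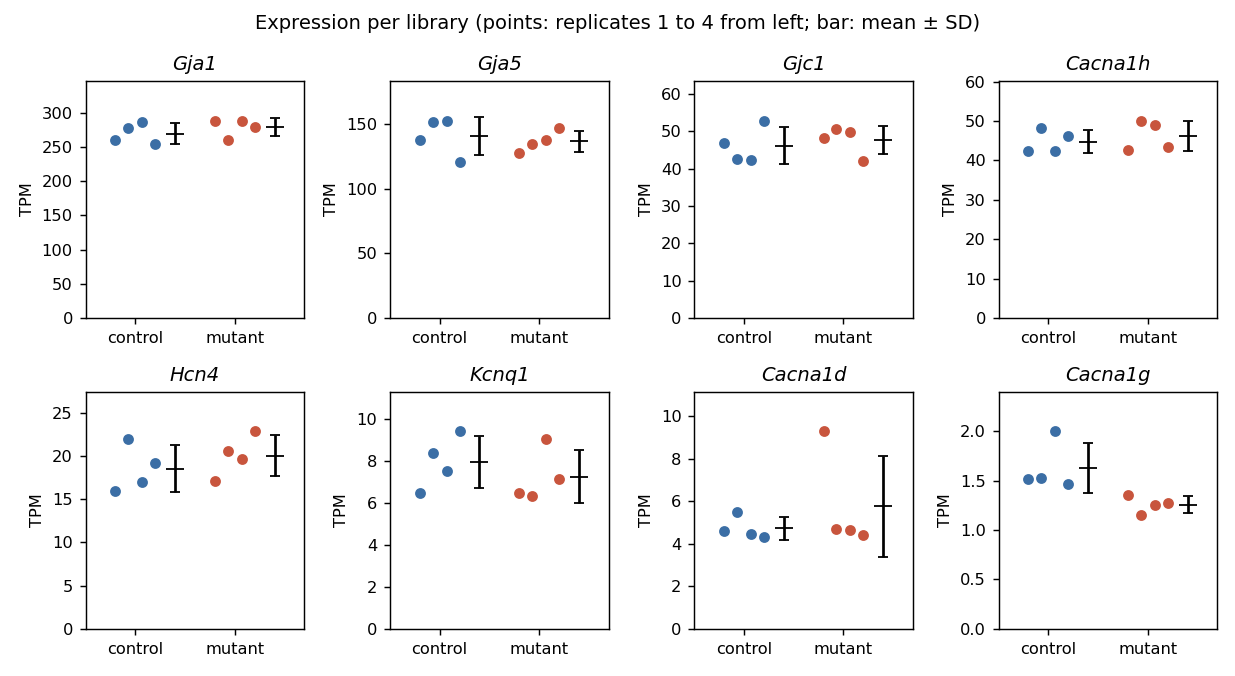
TPM of the 8 channel genes in each library (blue points, 4 control libraries; red points, 4 mutant libraries, replicates 1 to 4 from left) with the mean and SD of each group as a black bar, on linear axes that start at 0. The groups overlap for every gene except Cacna1g, whose mutant libraries all lie below the controls, and 1 mutant library stands far above the others for Cacna1d.

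**Figure D2:**
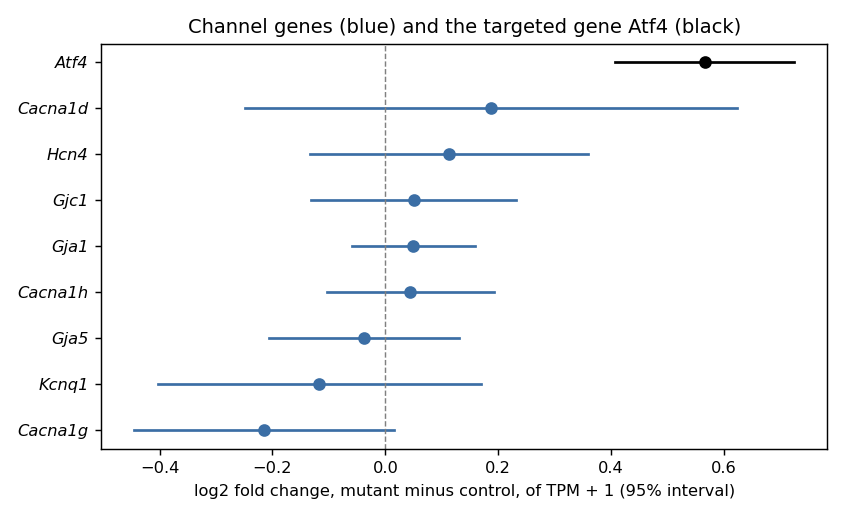
Log2 fold change (mutant minus control, of TPM + 1) with its 95% confidence interval for the 8 channel genes and for Atf4. The interval of every channel gene includes 0, and that of Cacna1g reaches 0.014 above it.

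Marker genes were read to check the tissue label. All 6 pan-cardiomyocyte markers and all 6 working ventricular markers were expressed, with the ventricular myosin light chain Myl2 at a mean of 11301 TPM. Of 7 atrial markers, 6 were expressed, led by the atrial light chains Myl4 at 4188.5 and Myl7 at 3479 TPM, and the source of these transcripts was not tested. The remaining atrial markers were far lower: Tbx5 averaged 29.2, Stard10 13.8, Nr2f2 10.7 and Nr2f1 2.88 TPM, and Sln, under the filter, 0.354 TPM. The summed TPM of the atrial list was 7438 to 7909 in controls and 7614.5 to 8035 in mutants. Of the 6 sinus venosus and sinoatrial markers, 3 reached the filter, Tbx18 at 34.3, Tbx3 at 7.9 and Smoc2 at 3.06 TPM. Tbx18 thus makes up most of the sum of this list given below, and which cells held it was not tested. The defining factors Shox2 and Isl1 averaged 0.435 and 0.376 TPM. Of the 6 neuronal markers, 3 reached the filter, Tubb3 at 8.84, Elavl4 at 1.46 and Stmn2 at 1.34 TPM, while Snap25 averaged 0.0291 TPM. The summed TPM of that list was 9.73 to 15.1 in controls and 11.2 to 12.7 in mutants. The other sums overlapped as well, at 47.1 to 51.3 in controls and 42.8 to 49.6 in mutants for the sinoatrial list, and 641 to 704 and 615 to 687 for endocardial and endothelial genes. All 6 epicardial markers were expressed, led by Upk3b at 109.5 TPM, with sums of 221 to 247 in controls and 218.5 to 241 in mutants. All 6 cushion and outflow mesenchyme markers were expressed too, with sums of 521 to 620 and 502 to 596. In a bulk library, fewer cells of a type and less RNA per cell cannot be told apart.

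Levels spanned a wide range, and TPM, being per length, lets them be set side by side. Gja1 was the highest at a mean of 274 TPM over the 8 libraries, above 97.3% of genes tested. Gja5 followed at 138 TPM (93.8%), then Gjc1 at 47.0 TPM and Cacna1h at 45.5 TPM. Below these came Hcn4 at 19.3, Kcnq1 at 7.60, Cacna1d at 5.24 and Cacna1g at 1.44 TPM, the last above only 6.21% of genes tested. Gjc1 exceeded Cacna1h in 5 of 8 libraries, and their ranges overlapped. Kcnq1 exceeded Cacna1d in 7 of 8 libraries, with overlapping ranges because of 1 mutant library. Every other pair of neighbours in this order was separated in all 8 libraries.

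For the sequence context of the genes near the top of this order and of the pacemaker channel, the 250 bases upstream of the RefSeq start (GRCm38.p6) were read on the gene's own strand. They are shown because the targeted gene encodes a DNA-binding factor, whose motif was looked for first. Windows for 4 of the 8 members were at hand, Gja1, Gja5, Hcn4 and Cacna1d. Capitals mark matches to any of 3 motifs, each searched on both strands. The site of GATA factors was searched as AGATAA. For T-box factors such as TBX5 and TBX3 the half-site was searched as AGGTGT. The GC box of the general factor SP1 was searched as GGGCGG.
Gja1, chr10:56377050-56377299, plus strand: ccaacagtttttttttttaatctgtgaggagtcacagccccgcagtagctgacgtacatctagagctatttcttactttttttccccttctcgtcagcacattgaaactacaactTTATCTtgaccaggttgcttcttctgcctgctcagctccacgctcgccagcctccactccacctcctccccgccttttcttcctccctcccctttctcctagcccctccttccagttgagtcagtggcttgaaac
Gja5, chr3:97032152-97032401, plus strand: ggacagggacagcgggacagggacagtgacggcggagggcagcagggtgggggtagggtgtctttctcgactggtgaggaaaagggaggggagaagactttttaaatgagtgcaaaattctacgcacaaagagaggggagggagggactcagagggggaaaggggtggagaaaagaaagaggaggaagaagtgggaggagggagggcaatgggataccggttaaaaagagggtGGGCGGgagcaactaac
Hcn4, chr9:58822699-58822948, plus strand: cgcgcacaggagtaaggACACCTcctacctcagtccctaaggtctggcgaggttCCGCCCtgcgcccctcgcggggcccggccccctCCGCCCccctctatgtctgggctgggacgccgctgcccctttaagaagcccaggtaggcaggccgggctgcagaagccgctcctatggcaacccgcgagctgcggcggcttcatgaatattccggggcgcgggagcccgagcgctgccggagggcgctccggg
The composite ATF4-C/EBP motif TGATGNAAN (N is any base) and the cyclic AMP response element TGACGTCA, which ATF and CREB factors bind, had no match in these windows or in either Cacna1d window. Over all 32851 RefSeq windows of this length, 3.44% held the first and 1.55% the second, so 0 of 5 windows says only that these letters are not there. The Gja1 window held 1 GATA site, 135 bases upstream of the start, a motif found in 9.99% of all windows. The Gja5 window held 1 GC box 17 bases upstream, and the Hcn4 window held 2 GC boxes and a T-box half-site 233 bases upstream, motifs found in 32.7% and 11.8% of all windows. The windows also differ in base composition: Hcn4 is 71.2% G and C with 25 CpG, Gja5 56.4% with 7, and Gja1 50.0% with 6, against a median of 52.4% and 6. Cacna1d has 2 annotated windows of opposite kind, one of 39.6% G and C with 2 CpG and one of 86.4% with 50.

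Connexins were the most abundant members. Gja1 (chromosome 10, bases 56377300 to 56390419, plus strand) measured 260.3, 278, 287 and 254 TPM in control replicates 1 to 4 and 288, 260.1, 289 and 279.5 TPM in mutant replicates 1 to 4. The groups overlapped, with 2 mutant libraries above every control. The log2 fold change was 0.050 with a 95% confidence interval from -0.060 to 0.16 (limma, adjusted p of 0.929). With the narrowest interval of the set, Gja1 was the member whose level was best fixed by these libraries.

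Gja5 (chromosome 3, bases 97032402 to 97053634, plus strand) measured 137, 151, 153 and 121 TPM in the controls and 127, 135, 137 and 147 TPM in the mutants. All 4 mutant values lay inside the control range. Its log2 fold change was -0.037 (interval -0.21 to 0.13, limma adjusted p of 0.970), and its sign rested on control replicates 2 and 3, the highest: it was 0.00015 without the first and 0.0039 without the second. Gja4 (connexin 37), which endothelium shares with Gja5, stood at 42.0 ± 3.50 TPM in controls and 42.1 ± 2.30 in mutants (SD, n = 4 each).

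Gjc1 (chromosome 11, bases 102799477 to 102819686, minus strand) measured 46.8, 42.7, 42.3 and 52.9 TPM in the controls and 48.3, 50.5, 49.9 and 42.2 TPM in the mutants. The ranges of the groups overlapped over nearly their whole length. Its log2 fold change was 0.050 (interval -0.13 to 0.23, limma adjusted p of 0.960).

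In every library the largest share among the 3 connexin genes was that of Gja1 and the smallest that of Gjc1. Gja1 held 59.1% ± 0.458 of their summed TPM in control and 60.2% ± 1.58 in mutant libraries, Gja5 30.7% ± 1.73 and 29.5% ± 1.68, and Gjc1 10.2% ± 1.65 and 10.3% ± 0.968 (SD, n = 4 per group). For the Gja1 share, 3 mutant libraries lay above every control and 1 below every control. Libraries with more Gja5 tended to have less Gjc1: control replicate 4 had the lowest Gja5 and the highest Gjc1 of the 8. Pearson's r of the log2 values was -0.90 over 8 libraries, the most extreme of the 28 pairs of members, given as a description since the points share library and scaling. The 3 genes made up 90.1% to 91.4% of the summed TPM of all 20 connexins listed. Among the other 17 connexins only Gja4 and Gja3 passed the filter. Gjd3 (connexin 30.2), linked to slow conduction in the mouse atrioventricular node, averaged 0.779 TPM.

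**Figure D3:**
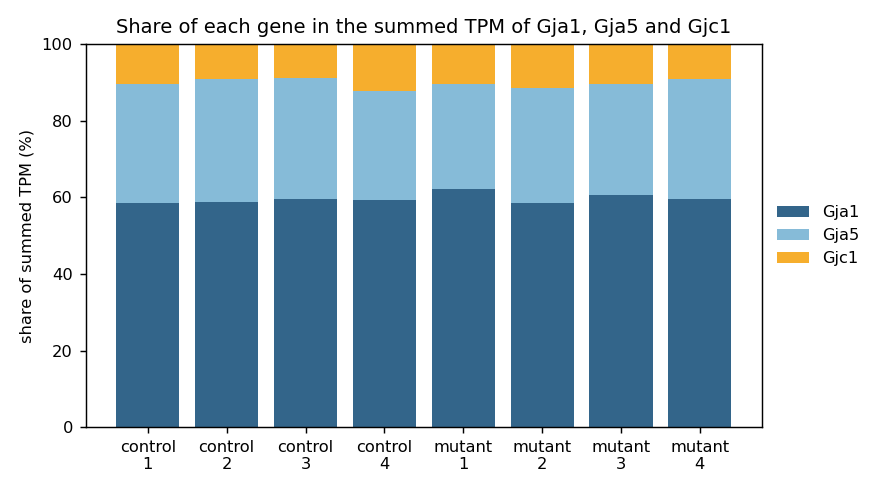
Share (%) of Gja1, Gja5 and Gjc1 in the summed TPM of the 3 genes, 1 stacked bar per library. Gja1 holds 58.4% to 62.1%, Gja5 27.4% to 32.1% and Gjc1 8.78% to 12.4% over the 8 libraries.

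The pacemaker channel gene Hcn4 (chromosome 9, bases 58822949 to 58863175, plus strand) measured 15.9, 22.0, 16.9 and 19.2 TPM in the controls and 17.1, 20.6, 19.7 and 22.8 TPM in the mutants. The group means were 18.5 ± 2.70 and 20.0 ± 2.39 TPM (SD, n = 4 each), and 1 mutant library exceeded every control. The log2 fold change of 0.11 had an interval from -0.13 to 0.36 (limma, adjusted p of 0.929). Its relatives Hcn2 and Hcn3 averaged 0.326 and 0.415 TPM, both under the filter.

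The T-type genes differed in level. Cacna1h (chromosome 17, bases 25374285 to 25436334, minus strand) measured 42.4, 48.2, 42.4 and 46.2 TPM in the controls and 42.5, 50.1, 49.0 and 43.4 TPM in the mutants. Its groups overlapped, with a log2 fold change of 0.044 (interval -0.10 to 0.19, limma adjusted p of 0.958). Of the 2 features that overlap Cacna1h on the other strand, the higher, Gm33617, averaged 2.34 TPM. How reads on opposite strands were assigned is not given in the sources used here.

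Cacna1g (chromosome 11, bases 94408391 to 94474400, minus strand) was the one member whose groups did not overlap. It measured 1.52, 1.52, 2.00 and 1.47 TPM in the controls and 1.35, 1.15, 1.25 and 1.27 TPM in the mutants, so all 4 mutants were below all 4 controls. The means were 1.63 ± 0.250 and 1.26 ± 0.0829 TPM (SD, n = 4 per group), a difference of -22.8%. The log2 fold change of -0.22 had an interval from -0.44 to 0.014, and limma gave an unadjusted p of 0.0632 and an adjusted p of 0.840. Groups that do not overlap with the mutants lower occurred in 2.05% of all genes tested, and in either direction in 3.68%, against 1 of 8 members. At this level the added 1 TPM shrinks the fold change: with 0.1 in its place the log2 fold change was -0.34 (adjusted p of 0.845). Control replicate 3 was the highest, and without it the log2 fold change was -0.15. Cacna1g formed 3.52% ± 0.676 of the TPM of the T-type pair in control and 2.67% ± 0.371 in mutant libraries (SD, n = 4 per group), with 3 mutant libraries below every control.

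Cacna1d (chromosome 14, bases 30039941 to 30491156, minus strand) measured 4.60, 5.50, 4.47 and 4.31 TPM in the controls and 9.28, 4.69, 4.65 and 4.39 TPM in the mutants. Mutant replicate 1 alone was high, and the other mutants fell inside the control range. The log2 fold change was 0.19 (interval -0.25 to 0.62, limma adjusted p of 0.930), and without mutant replicate 1 it was -0.034 (adjusted p of 0.968). Dcp1a, on the opposite strand, overlaps Cacna1d at its 5' end and averaged 18.0 TPM, with values from 16.5 to 19.2 TPM, and 8 further features that overlap averaged at most 0.626 TPM. How reads were divided among isoforms is not given in the sources used here, and its part in the high Cacna1d value was not tested. Cacna1c, which encodes the main cardiac L-type pore, stood at 23.8 ± 0.887 TPM in controls and 22.4 ± 1.60 in mutants (SD, n = 4 each; limma adjusted p of 0.874). Cacna1d made up 15.7% to 18.0% of the summed TPM of Cacna1c and Cacna1d in the controls, 29.5% in mutant replicate 1 and 15.8% to 17.8% in the other mutants.

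The same library was high in a small number of other genes. In mutant replicate 1 the gap of Cacna1d to the highest of the other 7 libraries was 0.66 on the log2 scale, and 6 of 15545 genes had a larger gap. Among these were Map4, at 103 TPM where the other libraries held 15.0 to 33.1 TPM, Myo18a, at 59.5 against 26.5 to 35.2 TPM, and Gapdh, at 238 against 123 to 147 TPM; these were picked after their values were seen. Genes highest by at least 0.5 on that scale numbered 14 in mutant replicate 1 and 14 to 25 in each of the other libraries. The sinoatrial and neuronal marker lists did not stand out in it, with mean log2(TPM + 1) of 2.03 and 1.02 against ranges of 1.93 to 2.08 and 0.947 to 1.14 in the others.

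Kcnq1 (chromosome 7, bases 143106877 to 143427050, plus strand) measured 6.49, 8.37, 7.51 and 9.42 TPM in the controls and 6.49, 6.33, 9.05 and 7.16 TPM in the mutants. The groups overlapped, although 2 mutant libraries lay below every control. The log2 fold change of -0.12 had an interval from -0.40 to 0.17 (limma, adjusted p of 0.937). The imprinted antisense RNA Kcnq1ot1 lies within Kcnq1 on the minus strand, from base 143213111 to 143296547, and held 3.11 ± 0.179 TPM in controls and 3.10 ± 0.204 in mutants (SD, n = 4 each). If counting ignored strand, reads from exon bases that the pair shares cannot be told apart, and how many such bases there are was not examined. Kcnq1 followed the erythroid marker list over the 8 libraries, with Pearson's r of 0.89 of the log2 values, the most extreme of the 72 pairs of a member and a marker list and given as a description. The summed TPM of that list ran from 3967 to 6729 in controls and 3710 to 5216 in mutants, all 6 markers were expressed, and their part in the Kcnq1 value was not tested. Kcne1, the accessory subunit that slows the KCNQ1 current, stood at 22.8 ± 1.51 and 23.8 ± 2.61 TPM (SD, n = 4 each).

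Other genes of the conduction machinery were read from the same fit, in 7 lists of 108 genes, 67 of them above the filter. In these lists 0 of 67 passed the adjusted threshold (limma, smallest adjusted p of 0.780), and 4 had an unadjusted p below 0.05, or 5.97% against 6.1% of all genes tested. The groups did not overlap in 2 of the 67, or 2.99% against 3.68%, and in 1 of these, Cxadr, they only just failed to touch. The median log2 fold change over the 67 genes was 0.021, with 43 nominally higher and 24 lower, where 48.2% of all genes tested were nominally higher. Whether this split differs from that of all genes was not tested.

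Accessory subunits and partners of the members were tested in 13 of 18 cases, 9 higher and 4 lower, with a median log2 fold change of 0.065. Kcne3, a KCNQ1 partner better known from epithelia, had the smallest p: it measured 4.78, 5.21, 5.10 and 3.50 TPM in the controls and 3.06, 3.91, 2.49 and 1.18 TPM in the mutants, with 3 mutants below every control and an adjusted p of 0.780 (limma, log2 fold change -0.67). Kcne2, named after its values were seen, measured 0.951 ± 0.181 TPM in controls and 1.45 ± 0.259 in mutants (SD, n = 4 each; limma log2 fold change 0.32, adjusted p of 0.800). It lay at the filter: every mutant reached 1 TPM, while controls ran from 0.696 to 1.12 TPM, so the mutants alone let it pass. Its unadjusted p of 0.0244 (limma) is among those counted above and carries this limit. Kctd3, listed for its link to the HCN3 channel, was also named afterwards. Its groups did not overlap, at 25.4 to 26.1 TPM in controls and 19.0 to 25.2 TPM in mutants (limma adjusted p of 0.821). Hcn3 is not a member and averaged 0.415 TPM, and a link of Kctd3 to Hcn4 was not tested.

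Sodium channel genes, which carry the fast inward current of the action potential, were tested in 5 of 12 cases, with a median log2 fold change of 0.040, and the smallest p belonged to the beta subunit gene Scn4b (log2 fold change 0.20, limma adjusted p of 0.851). Potassium channel genes were tested in 14 of 18 cases, 9 higher and 5 lower, with a median of 0.012. Abcc9, the sulfonylurea receptor of cardiac ATP-sensitive channels, was the most abundant at 69.0 TPM. Kcna4, with the smallest p, had 1 very low mutant library, at 0.519 TPM, where the remaining mutants held 1.94 to 3.21 TPM and the controls 2.85 to 3.78 TPM (limma adjusted p of 0.841).

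Transcription factors that pattern the conduction system were tested in 16 of 18 cases, 9 higher and 7 lower, with a median log2 fold change of 0.012. Hopx was the most abundant at 261 TPM. Nkx2-5, a homeobox factor needed for conduction cell number, measured 131, 127, 121 and 127 TPM in the controls and 139.9, 129, 138 and 141 TPM in the mutants, where 3 mutants lay above every control (limma log2 fold change 0.11, unadjusted p of 0.0163, adjusted p of 0.780). Tbx18, named after its values were seen, stood at 36.2 ± 1.95 TPM in controls and 32.5 ± 3.08 in mutants (SD, n = 4 each; limma adjusted p of 0.809). Its source among the cell types of the tissue was not tested. Junction anchoring genes were all tested, 15 of 15, with a median of 0.021. Ctnnb1, for beta-catenin, was the most abundant at 472 TPM, and Cxadr, a cell adhesion receptor at the intercalated disc, measured 47.0 to 52.35 TPM in controls and 52.35 to 54.7 TPM in mutants, so that its highest control and lowest mutant were equal to these digits (limma adjusted p of 0.858).

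**Figure D4:**
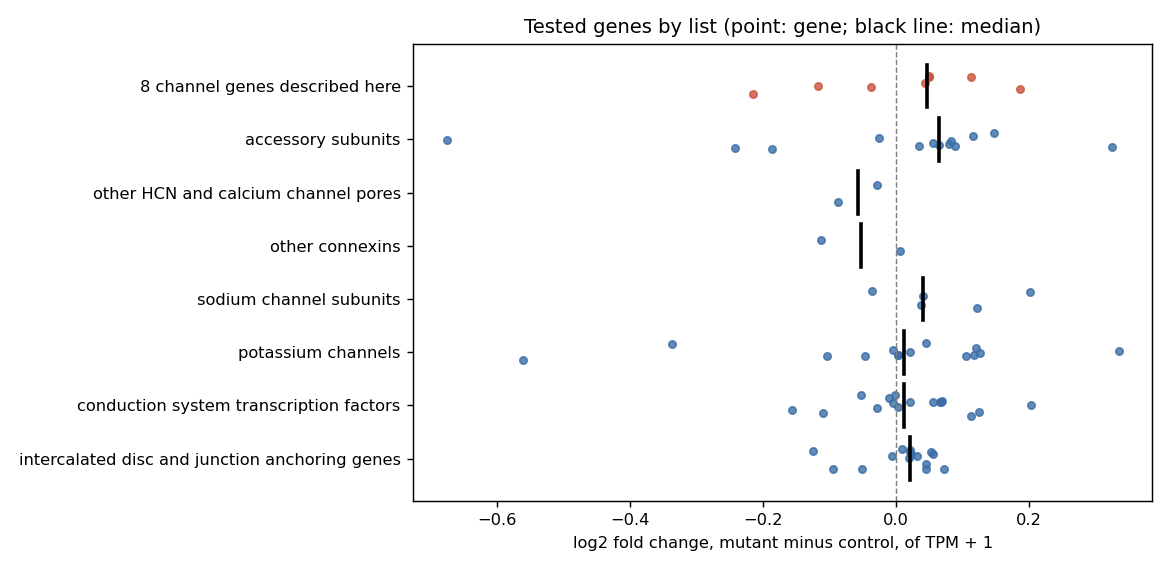
Log2 fold change (mutant minus control, of TPM + 1) of each tested gene in the 8 channel genes (red) and the 7 wider lists (blue), with the median of each list as a black line. The medians lie between -0.058 and 0.065, and the genes farthest from 0 are Kcne3 at -0.67 and Kcna4 at -0.56.

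The genes whose pattern over the 8 libraries was most like that of a member were sought among genes with a mean of at least 5 TPM, by Pearson's r of log2(TPM + 1), with no test. With 11626 or 11627 genes compared per member, high values arise for every member. For Gja1 they were Tnfsf12 (r of 0.93) and Mef2c (0.91), for Gja5 Ccdc112 (0.96) and Zup1 (0.94), and for Gjc1 Slc15a4 and 5031439G07Rik (0.97 each). Hcn4 was nearest to Cend1 and Gas8 (0.93 each), Cacna1h to Sh3gl1 (0.95) and Pde7a (0.91), and Cacna1g to Rras (0.96) and Mpnd (0.95). Rras and Mpnd share with Cacna1g that all 4 mutants lay below every control and that control replicate 3 was highest. Kcnq1 was nearest to AI506816 (0.95) and Cdk2 (0.94). For Cacna1d, Rtl8b (0.97) and Cox15 (0.96) share its high value in mutant replicate 1.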

How the data were processed

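Total RNA of ventricular heart was sequenced in 8 libraries. Values are TPM as deposited by the authors, 1 column per library; FastQC, Trim Galore 0.6.7, HISAT2 2.2.1, StringTie 2.2.1, featureCounts and DESeq2, and the builds GRCm38 and mm10, are named per the submitters' processing notes, with no role or order. Strand handling is not given in the sources used here. TPM keeps no read depth, so no counting interval is given; library sums ran from 923473 to 949762 TPM. Coordinates are the table's, and for 8 of 8 members equal RefSeq GRCm38.p6.

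Genes that reached 1 TPM in 4 or more libraries were fitted as log2(TPM + 1) in limma 3.58.1 (R 4.3.3; no covariate, variance trend), two-sided, adjusted by Benjamini-Hochberg at 0.05. All 108 listed symbols matched, Kcne5 as Kcne1l. Named are the members, Atf4, Kcnq1ot1, per list the most abundant gene and that with the smallest p (a few such results are not reported here), and per member the 2 most similar genes. Members and lists were chosen with earlier results of these data known. The GATA, T-box and SP1 motifs were added after the windows were read.

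Simulated data of the same size (15545 genes, 200 changed, 3 runs) gave recovery of 0.5% at a change of 0.2, 30.8% at 0.3, 68.0% at 0.5 and 92.2% at 1 (log2). The fitted changes of the members were of about the smallest of these sizes or less. Each recovery rate is an average over all changed genes, quiet and noisy, and not a rate for any member. No run held fewer changed genes, whereas in the data 6 genes passed the threshold, so the rates need not hold there. Deviations of equal replicate numbers had r of -0.038, 0.035, -0.037 and -0.082 over all genes tested. This cannot exclude pairing in single genes. The labels do not say that equal numbers pair samples, so the replicate block is an alternative only. Other alternatives were the pseudocount, filter, scaling, variance model, library weights and each library left out. Python 3.11.15, pandas 2.3.3, numpy 2.4.6 and matplotlib 3.10.9 were used.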

Additional observations from a re-analysis of the deposited data

Results flagged for a closer look

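Groups of 4 libraries were examined 118 times, over the genes named, the family shares and the marker lists, for 1 library that lay apart by most of its group's range (Dixon's test at 5%). This was met 8 times. Chance flags about 5% of groups, and the 8 are not separate observations: the share below contains Cacna1d, and Rtl8b and Cox15 were chosen for their likeness to it.

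For Cacna1d, mutant replicate 1 held 9.28 TPM and the other mutants 4.39 to 4.69 TPM, and with it the share of Cacna1d in the summed TPM of Cacna1c and Cacna1d, at 29.5% against 15.8% to 17.8%. Rtl8b and Cox15 were high in the same library, at 132 against 116 to 119 TPM and at 35.0 against 30.2 to 30.4 TPM. Zup1 was low in it among the mutants, at 5.53 against 7.35 to 7.51 TPM, but inside the 5.06 to 9.19 TPM of the controls. So was the mean log2(TPM + 1) of the working ventricular markers, at 9.28 against 9.34 to 9.35, inside the 9.26 to 9.32 of the controls. Of these markers, Irx4 was lowest there, at 34.9 TPM, while Myl3, Myh7 and Hey2 were higher there than in the other 7 libraries. Cacna1g was high in control replicate 3, at 2.00 against 1.47 to 1.52 TPM, on the far side from the mutants. For AI506816, mutant replicate 3 held 20.6 TPM and the other mutants 14.5 to 15.0 TPM, where the controls ran from 14.1 to 20.6 TPM.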

How the results depend on the processing

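No member and no gene of the wider lists passed the adjusted threshold in any of the 17 alternatives (limma, count 0), and the smallest adjusted p of a member was 0.733. Cacna1g alone reached an unadjusted p below 0.05, at 0.0144 with no variance trend (adjusted p of 0.733) and 0.0439 with no filter (adjusted p of 0.865). Of 134 member values recomputed, 131 kept their direction. The 3 that reversed were Cacna1d without mutant replicate 1 (-0.034), and Gja5 without control replicate 2 (0.00015) or 3 (0.0039). With 1 library left out, log2 fold changes ranged from -0.034 to 0.28 for Cacna1d, -0.11 to 0.0039 for Gja5, -0.24 to -0.15 for Cacna1g, 0.046 to 0.19 for Hcn4, 0.0053 to 0.083 for Cacna1h, 0.022 to 0.083 for Gja1, 0.010 to 0.12 for Gjc1 and -0.22 to -0.040 for Kcnq1. Cacna1d and Cacna1g could not be tested with a filter at 5 TPM. The replicate block changed no call among the members and wider lists. Over all genes, the count of 6 was 0 with no filter, with no variance trend and with the replicate block, and 0 to 3 with 1 library left out. Of 119 recomputed medians of the wider lists, 4 moved by more than the replicate spread. For Cacna1g, the only member near 1 TPM, the pseudocount sets the size of the fold change.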
